A study of Mus musculus with 6 samples.

Results

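Leptin and the genes that mark fat cells were followed in mouse skin of Hoxc13 knockout and wild type animals. Hoxc13 is a homeobox factor that acts in hair follicles. The members were a set of 10 adipocyte genes, Lep, Adipoq, Cfd, Retn, Lpl, Fabp4, Plin1, Plin4, Pparg and Cebpa. Of these, 8 had a named probe set among the 15644 genes with a symbol, and Cfd and Plin1 were not analysed here. The 3 mutant samples were labelled Hoxc13 knockout with the allele Hoxc13tm1Mrc, and the 3 reference samples were labelled WT. All 6 were dissected skin of mice on a C57BL/6 background, labelled male, with 5 dpn in their titles, and per the design text each genotype was sampled 3 times independently. The labels do not say whether animals were pooled. Values are log2 values made by RMA, which puts all arrays on one distribution with a median of 7.405. With 3 arrays a genotype, precision is limited by their number.

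White fat cells of the skin lie below the dermis and store triglyceride in a large lipid droplet. The nuclear receptor Pparg and the factor Cebpa drive their formation, lipid enzymes and droplet proteins carry out storage, and the cells release hormones. The level of leptin follows how much fat a cell holds and the feeding state of the animal, so it need not move with the other markers. In mice the fat layer under the skin thickens while hair follicles grow. The comparison between the genotypes asks which skin transcripts depend on Hoxc13.

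The stretches before the start sites of 3 hormone genes are shown because these genes gave the largest differences among the members. Sequences and coordinates are from RefSeq on GRCm38.p6, each read 5′ to 3′ on the plus strand and ending at the base before the start site. Capitals mark TTGCGCAA, a palindrome bound by C/EBP factors, and TATAA, the core of a TATA box.
Lep, chr6:29059971-29060220: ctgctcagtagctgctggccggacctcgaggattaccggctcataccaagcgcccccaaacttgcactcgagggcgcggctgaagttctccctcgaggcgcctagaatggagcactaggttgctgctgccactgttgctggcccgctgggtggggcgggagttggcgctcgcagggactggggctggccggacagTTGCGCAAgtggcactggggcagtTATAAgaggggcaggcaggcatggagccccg
Adipoq, chr16:23146286-23146535: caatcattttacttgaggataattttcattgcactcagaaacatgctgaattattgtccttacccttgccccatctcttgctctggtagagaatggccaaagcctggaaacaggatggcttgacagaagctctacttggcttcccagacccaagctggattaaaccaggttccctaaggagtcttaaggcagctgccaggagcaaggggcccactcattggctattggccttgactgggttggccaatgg
Retn, chr8:3655520-3655769: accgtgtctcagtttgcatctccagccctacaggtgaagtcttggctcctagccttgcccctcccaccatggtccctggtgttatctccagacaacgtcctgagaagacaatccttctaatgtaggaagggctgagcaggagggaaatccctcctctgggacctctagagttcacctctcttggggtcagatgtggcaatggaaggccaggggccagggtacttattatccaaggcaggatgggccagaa

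TTGCGCAA was searched on both strands and lay 55 to 48 bases before the Lep start. It was found in 0.164% of 32851 such windows of 250 bases over all genes. Of the measured members, 6 had entries, with 8 windows in all, and Lep alone among them held it. TATAA, searched on the given strand, lay 31 to 27 bases before the Lep start and also in windows of Plin4, Pparg and Cebpa, against 16% of all windows. A PPAR direct repeat of AGGTCA half-sites with any base between them, searched on both strands, was in none of the 8 windows and in 0.0335% of all. Lpl and Fabp4 had no entry. A match of letters is a description of the sequence and shows no binding.

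The Hoxc13 probe set read 8.95, 8.75 and 9.74 in mutant skin, against 9.63, 9.81 and 9.83 in wild type skin, and did not pass the test at a difference of -0.61 (limma adjusted p = 0.293), but did at -0.90 without mutant replicate 3 (limma adjusted p = 0.00114). It is not known here whether its probes lie in the disrupted part, so this level does not check the genotype. Mutant replicate 3 stood apart, correlating at 0.989 and 0.990 with the other mutant arrays, which correlated at 0.997 with each other. With wild type replicates 1, 2 and 3 it correlated less, at 0.9742, 0.9796 and 0.9756. The other mutant arrays correlated with wild type arrays at between 0.9726 and 0.9795. These are correlations across probe sets, which are not independent replicates. On all 6 arrays Xist, made from the inactive X, lay between 11.15 and 11.67 and the 6 Y-linked probe sets between 2.98 and 4.89, which goes against the label male on every array. As skin markers, Krt14 read 12.57, 12.64 and 13.05 in mutant skin, against 12.53, 12.63 and 12.51 in wild type skin.

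None of the 8 measured members passed the limma test with all 6 arrays, where 2.08% of 16331 probe sets did (adjusted p under 0.05), 0.478% higher and 1.6% lower in mutant skin. Leptin was the member with the largest difference and lay lower in mutant skin. The other 7 members, called fat cell identity genes from here on, differed by between -0.15 and 0.67. That name is a label, and these genes did not all vary together. With each genotype's mean removed, 16 of their 21 pairs had a positive Pearson r, and r ranged from -0.522 to 0.974. Cebpa had r between -0.522 and 0.019 with the rest. At an unadjusted p under 0.05, only Lep passed, and over all probe sets 14.4% did. The groups did not overlap for 1 of 8 members, or 12.5%, against 20.3% of all probe sets, 12.5% with the mutant values higher and 7.82% with them lower. Counted over both directions, the shares of members were thus not above the background. The 1 member counted, Lep, was lower, and 1 of 8 stands above the shares of probe sets lower in mutant skin, 7.82% without overlap and 5.94% at an unadjusted p under 0.05. A count of 1 gene is not a result about the members as a group. The median difference of the 8 members was 0.16, against 0.0247 over all probe sets, but it was 0.0273 without mutant replicate 2 and 0.0684 without wild type replicate 1.

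Lep encodes leptin, the hormone by which fat tissue reports its stores to the brain. It read 6.76, 8.16 and 7.31 in mutant replicates 1, 2 and 3, against 8.30, 8.80 and 9.44 in wild type replicates 1, 2 and 3. Every mutant value lay below every wild type value, but mutant replicate 2 and wild type replicate 1 were only just apart. The means were 7.41 ± 0.70 in mutant and 8.85 ± 0.57 in wild type skin (SD, n = 3 each). Mutant skin thus held 0.369 of the wild type value, with a 95% confidence interval of 0.198 to 0.688. The log2 difference of -1.44 (SE 0.39) had an unadjusted p of 0.00645 and an adjusted p = 0.139 in limma, and so did not pass. It was the 100th lowest difference of 16331 probe sets, but only number 760 when these were ordered by p. In 2 of the 3 mutant arrays Lep lay below the array median, and on every array above the top of the Y-linked range. Whatever single array was left out, the difference stayed between -1.81 and -1.12 with adjusted p between 0.0702 and 0.402.

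**Figure D1:**
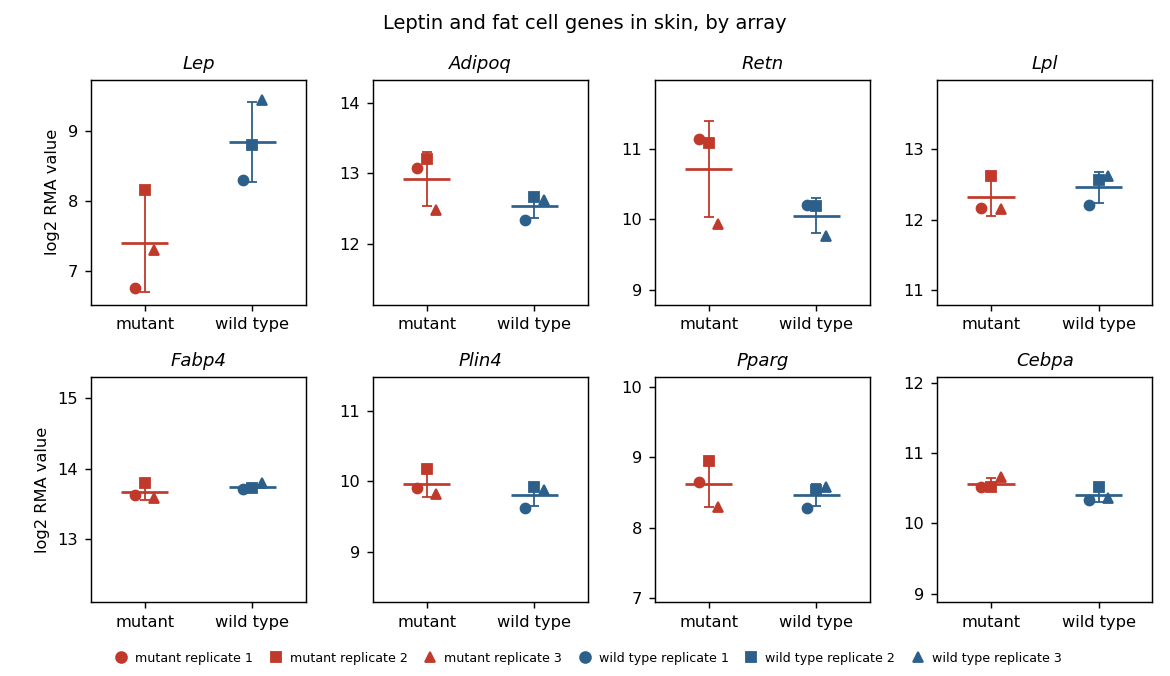
Log2 RMA values of the 8 measured genes on each array, mutant on the left and wild type on the right of each panel, all panels spanning the same number of log2 units. Horizontal lines are means and bars are SDs of 3 arrays. The Lep groups do not overlap, with 8.16 the highest mutant and 8.30 the lowest wild type value, while the groups of every other gene overlap.

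Adipoq encodes adiponectin, a hormone made almost only by fat cells. It read 13.08, 13.21 and 12.48 in mutant skin, against 12.33, 12.66 and 12.63 in wild type skin. Mutant replicates 1 and 2 lay above all wild type arrays and mutant replicate 3 lay among them. The difference was 0.38 (SE 0.19, limma adjusted p = 0.412). Without mutant replicate 3 it was 0.60 (limma adjusted p = 0.0127), and without mutant replicate 2 it was 0.24 (limma adjusted p = 0.715).

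Retn encodes resistin, a small cysteine-rich hormone that in mice comes from fat cells. It read 11.15, 11.08 and 9.93 in mutant skin, against 10.21, 10.18 and 9.77 in wild type skin. Mutant replicates 1 and 2 were again the highest arrays, and mutant replicate 3 lay among the wild type values. The difference was 0.67 (SE 0.31, limma adjusted p = 0.388), and 1.06 without mutant replicate 3 (limma adjusted p = 0.00274). Leaving out mutant replicate 1 gave 0.45 (limma adjusted p = 0.728), and leaving out mutant replicate 2 gave 0.48 (limma adjusted p = 0.672). Retn and Adipoq were the 2 members called in that fit, both higher in mutant skin, or 25% of the 8 members, against 14.2% of all probe sets called in either direction, 7.95% higher and 6.23% lower. That fit keeps mutant replicates 1 and 2, which resemble each other closely, and so may understate the spread between mutant samples. Lep was at -1.39 there (limma adjusted p = 0.0702).

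Lpl encodes lipoprotein lipase, which frees fatty acids from circulating triglyceride for uptake. It read 12.17, 12.63 and 12.15 in mutant skin, against 12.21, 12.56 and 12.62 in wild type skin, a difference of -0.15 (SE 0.16, limma adjusted p = 0.724). Fabp4, the fatty acid carrier of the fat cell cytoplasm, read 13.63, 13.80 and 13.58 in mutant skin, against 13.71, 13.73 and 13.80 in wild type skin. Its groups overlapped and its difference of -0.08 (SE 0.08, limma adjusted p = 0.712) was the smallest of the members.

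Plin4 encodes a perilipin that coats new lipid droplets. It read 9.90, 10.17 and 9.82 in mutant skin, against 9.62, 9.92 and 9.88 in wild type skin, with overlapping groups and a difference of 0.15 (SE 0.12, limma adjusted p = 0.610).

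The regulators of fat cell identity did not pass either. Pparg read 8.65, 8.95 and 8.29 in mutant skin, against 8.28, 8.53 and 8.58 in wild type skin, a difference of 0.17 (SE 0.17, limma adjusted p = 0.701). Cebpa read 10.51, 10.52 and 10.67 in mutant skin, against 10.33, 10.52 and 10.36 in wild type skin, a difference of 0.16 (SE 0.08, limma adjusted p = 0.429). Against the average of the other mutant arrays, mutant replicate 3 was higher for Cebpa and lower for the other 7 members.

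For all 7 identity genes the 95% interval of the difference included 0, and taken over these genes the intervals reached from 0.698 to 2.63 of the wild type value. A fall in any of them to the 0.369 estimated for Lep lay outside its interval. The Lep interval itself, 0.198 to 0.688, ended close to the lowest bound of these genes, 0.698 for Lpl. The narrowest intervals were those of Fabp4 (0.833 to 1.08) and Cebpa (0.977 to 1.28). The widest was that of Retn (0.956 to 2.63). In whole skin, a change in the number of fat cells and a change in RNA per fat cell cannot be told apart.

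**Figure D2:**
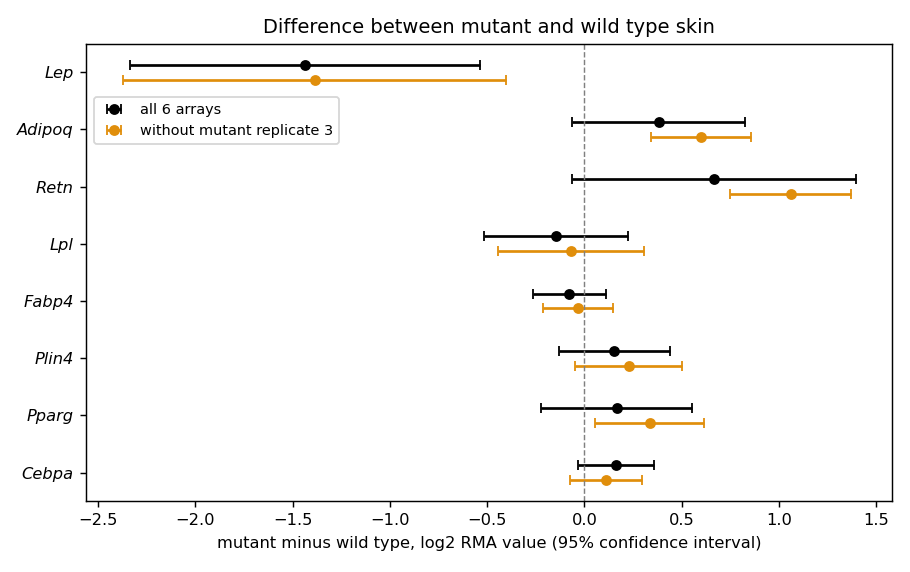
Mutant minus wild type differences in log2 RMA value with 95% confidence intervals, for all 6 arrays (black) and without mutant replicate 3 (orange). Lep sits at -1.44 and -1.39, and the interval of each of the other 7 genes includes 0 with all arrays, while those of Adipoq, Retn and Pparg lie above 0 without mutant replicate 3.

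Leptin was then set against each identity gene of the same array. The absolute gap between 2 probe sets has no meaning, so only its change between genotypes was read, as a description with no test. Lep minus the mean of the 7 identity genes was -4.54, -3.32 and -3.68 in mutant replicates 1, 2 and 3, against -2.66, -2.36 and -1.65 in wild type replicates 1, 2 and 3. The gap was wider in every mutant array than in every wild type array. The means were -3.85 ± 0.62 in mutant and -2.22 ± 0.52 in wild type skin (SD, n = 3 each), a difference of -1.62. The mean of the 7 identity genes alone was 11.25 ± 0.25 in mutant and 11.07 ± 0.10 in wild type skin, so most of the change in the gap came from Lep.

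Gene by gene, the groups of this gap did not overlap for any of the 7. The mutant minus wild type difference of the gap was smallest against Lpl (-1.29) and Fabp4 (-1.36) and largest against Adipoq (-1.82) and Retn (-2.10). Against Fabp4 the groups were closest, with -5.64 the highest mutant value and -5.41 the lowest wild type value. These 7 gaps share the Lep values and are not independent. The Lep groups were already apart on their own, so the count of 7 mostly restates Lep and adds no support. The share of all probe sets whose gap to Lep also separates the groups was not counted.

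**Figure D3:**
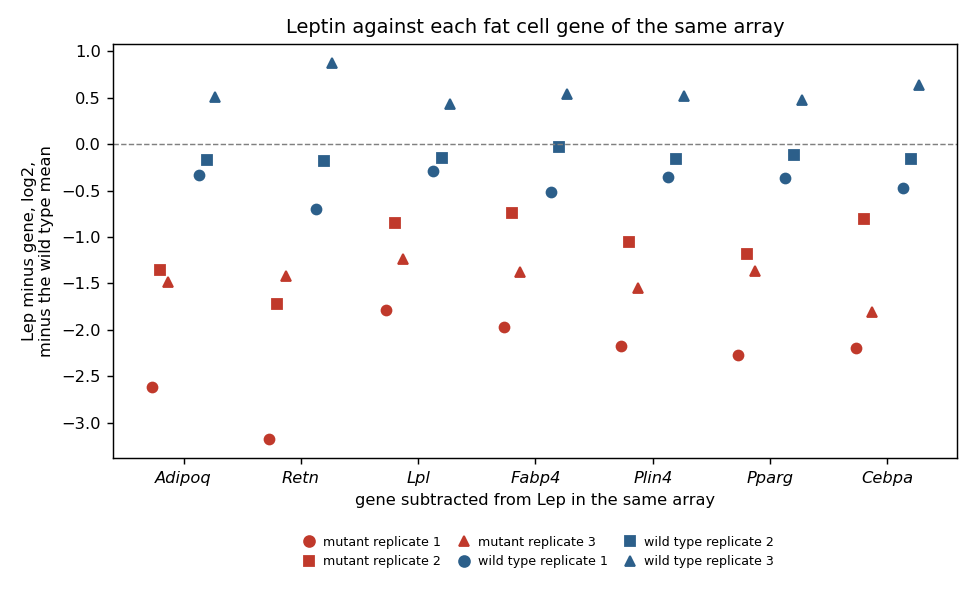
Lep minus each of the 7 fat cell genes on the same array, in log2 units and shifted so that the wild type mean is 0. Points are single arrays, mutant left of wild type for each gene. The mutant points lie below the wild type points for all 7 genes, as they do for Lep alone.

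The 5 named genes whose values followed Lep most closely over the 6 arrays were Dr1, 4931429P17Rik, Pfkl, Gm6377 and Trip4. They had Pearson r between 0.983 and 0.991, as a description of 6 arrays that share the genotype difference. None is a fat cell marker, their own differences were between -0.24 and -0.10, and none passed limma. On all arrays 4931429P17Rik (3.635 to 3.854) and Gm6377 (3.18 to 3.416) read inside the Y-linked range. Among the 15643 other named genes, ordered by the same r, Fabp4 came 471st, Lpl 668th, Pparg 6208th, Plin4 6535th, Adipoq 9978th, Retn 12728th and Cebpa 13085th. This order pools genotypes whose Lep means differ. With each genotype's mean removed, the r with Lep was 0.904 for Lpl (185th), 0.807 for Fabp4 (547th), 0.785 for Plin4 (657th), 0.645 for Pparg (1385th) and 0.412 for Adipoq (3267th), against -0.304 pooled for Adipoq. For Cebpa (8431st) and Retn (9588th) it was -0.0375 and -0.139. Mutant replicate 2 had both the most Lep and the most Adipoq among the mutant arrays.

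The leptin receptor and its signalling genes, which cells use to read leptin, had higher means in mutant skin for 11 of 13 measured genes, but none passed limma. At an unadjusted p under 0.05, 5 were higher and 0 lower, against 8.44% and 5.94% of all probe sets. Ptpn11, with equal means, lay at percentile 42.3 of all differences, so most probe sets also had higher means in mutant skin. Counts of higher means in all lists are to be read beside this. Higher means were held by 9 of 9 macrophage and 11 of 14 keratinocyte genes, but by 6 of 11 endothelial and 2 of 9 sebaceous genes. Leprot, an endosomal protein that limits leptin receptor at the cell surface, read 10.001, 10.027 and 9.987 in mutant skin, against 9.711, 9.674 and 9.694 in wild type skin. Its groups were well apart, with a difference of 0.31 (SE 0.06, limma adjusted p = 0.0581). It passed with an intensity trend and robust prior (adjusted p = 0.0435), without variance moderation (adjusted p = 0.0257), with array weights (adjusted p = 0.0132) and without mutant replicate 3 (adjusted p = 0.018), so its call depended on the variance setting and on mutant replicate 3. The receptor Lepr itself, named after its values were seen, averaged 7.25 ± 0.17 in mutant skin and 6.92 ± 0.07 in wild type skin (SD, n = 3 each, limma adjusted p = 0.183). Irs2, an adaptor shared with insulin signalling, was at 0.53 (limma adjusted p = 0.0899). Socs3, which leptin and other cytokines induce, was at 0.16 (limma adjusted p = 0.619), also named after its values were seen. The list median was 0.15 with all arrays and 0.0847 without mutant replicate 3, when 4 of the 13 genes were called higher, against 7.95% of all probe sets.

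A further list of fat tissue genes held hormones and secreted proteins, and also receptors and proteins kept in the cell. It is called the secreted protein list here. None of its genes passed limma, 0 of 17 with all arrays, and 9 had higher and 8 lower means in mutant skin. Npr3, the clearance receptor for natriuretic peptides, read 6.54, 7.18 and 6.61 in mutant skin, against 7.41, 7.68 and 8.50 in wild type skin. As for Lep, its mutant values all lay below the wild type values and wild type replicate 3 was the highest, at a difference of -1.09 (SE 0.29, limma adjusted p = 0.134). Agt, which encodes angiotensinogen, was at 0.60 (SE 0.15, limma adjusted p = 0.121). At an unadjusted p under 0.05, 2 of the 17 were higher and 3 lower, where 8.44% and 5.94% of all probe sets were, and the list median was 0.038, with a sign that turned without mutant replicate 2 (-0.0513) or mutant replicate 3 (-0.00667).

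Genes of lipid droplets and lipolysis did not pass limma, 0 of 17, with 3 higher and 0 lower at an unadjusted p under 0.05, beside 8.44% and 5.94% of all probe sets. The means of 13 were higher and of 4 lower in mutant skin. Their median was 0.099, and 0.0158 without mutant replicate 2. Plin5, a perilipin of oxidative tissues, was at 0.42 (limma adjusted p = 0.134) and the triglyceride lipase gene Pnpla2 at 0.29 (limma adjusted p = 0.276).

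Fatty acid and triglyceride synthesis was the list with the lowest median among those of fat cells, at -0.20, with 11 of 16 members below 0. None passed limma, and 1 was higher and 3 lower at an unadjusted p under 0.05, set against 8.44% and 5.94% of all probe sets. The mitochondrial citrate carrier gene Slc25a1 was at -0.41 (limma adjusted p = 0.0899). Fasn, fatty acid synthase, read 10.04, 10.49 and 10.50 in mutant skin, against 10.80, 10.75 and 10.80 in wild type skin, a difference of -0.44 (limma adjusted p = 0.174). Dropping mutant replicate 3 brought the list median to -0.0469, and dropping mutant replicate 1 to -0.0463. Sebaceous glands also make lipid with these enzymes. Their list, of which 9 genes were measured, had a median of -0.17 and 7 of the 9 below 0. Only Krt79, a keratin of the gland's duct, was called, at 0.54 (limma adjusted p = 0.0435), where 0.478% of all probe sets were called higher. Unadjusted p was under 0.05 for 1 higher and 2 lower genes, beside 8.44% and 5.94% of all probe sets. The lower genes were Scd3 at -1.19 (limma adjusted p = 0.120) and Elovl3 at -1.14 (limma adjusted p = 0.107), named after their values were seen. The part of the glands in these values was not tested.

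Of 16 factors that act in fat cell formation beside Pparg and Cebpa, 0 passed limma, with 4 higher and 0 lower at an unadjusted p under 0.05 (8.44% and 5.94% of all probe sets) and a median of 0.13. Stat5a was at 0.29 (limma adjusted p = 0.238) and the coactivator Ppargc1b at 0.44 (limma adjusted p = 0.258). Among 14 genes of fat cell precursors and inhibitors of fat cell formation, 1 was called higher and none lower, beside 0.478% and 1.6% of all probe sets. Unadjusted p was under 0.05 for 2 higher and 1 lower genes, against 8.44% and 5.94% of all probe sets, and the list median was 0.10. The called gene was Ddit3, a stress-induced C/EBP family member that blocks other C/EBP factors. It read 8.386, 8.349 and 8.327 in mutant skin, against 8.004, 7.889 and 7.987 in wild type skin, a difference of 0.39 (SE 0.07, limma adjusted p = 0.0342). Its groups were well apart, yet the call was lost in each fit that kept mutant replicate 3 and dropped another array (adjusted p between 0.125 and 0.144), without variance moderation (adjusted p = 0.073) and with the replicate number as a block (adjusted p = 0.122).

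Partners of Lpl in triglyceride uptake gave 0 of 12 in limma and a median of 0.0508, with 1 gene higher and 1 lower at an unadjusted p under 0.05, near the 8.44% and 5.94% of all probe sets. Vldlr, the very low density lipoprotein receptor gene, was at 0.29 (limma adjusted p = 0.179) and Angptl8, which encodes an inhibitor of Lpl, at -0.39 (limma adjusted p = 0.224). Of the complement alternative pathway, which the Cfd product factor D activates, 5 genes were measured and 0 passed limma, with 2 higher and 0 lower at an unadjusted p under 0.05, next to 8.44% and 5.94% of all probe sets. The highest was Cfp, which encodes properdin, at 0.34 (limma adjusted p = 0.183), and C3ar1, the C3a receptor gene, was at 0.22 (limma adjusted p = 0.347).

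The defining marker of brown fat cells, the uncoupling protein gene Ucp1, read between 4.62 and 4.84 on all arrays, inside the Y-linked range. None of the 13 genes passed limma, with 4 higher and 1 lower at an unadjusted p under 0.05, compared with 8.44% and 5.94% of all probe sets. The means of 7 were higher and of 6 lower in mutant skin. The 1 lower gene was Elovl3 at -1.14 (limma adjusted p = 0.107), which is also in the sebaceous list. Pdk4, which turns cells from glucose to fat burning, read 9.76, 8.42 and 8.73 in mutant skin, against 7.61, 7.60 and 6.96 in wild type skin, a difference of 1.58 (limma adjusted p = 0.0723). Cpt1b, the muscle form of the enzyme that brings fatty acids into mitochondria, was at 0.99 (limma adjusted p = 0.101). Both are also muscle genes. All 13 skeletal muscle markers had higher means in mutant skin, by a median of 0.64, and the mean of the list was 11.22, 10.69 and 10.20 in mutant skin, against 9.93, 10.62 and 9.49 in wild type skin. Of these markers 1, the myosin gene Myh2, was called higher (1.23, limma adjusted p = 0.0195), where 0.478% of all probe sets were. Unadjusted p was under 0.05 for 6 higher and 0 lower markers, against 8.44% and 5.94% of all probe sets. The part of muscle in the values of Pdk4 and Cpt1b was not tested.

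**Figure D4:**
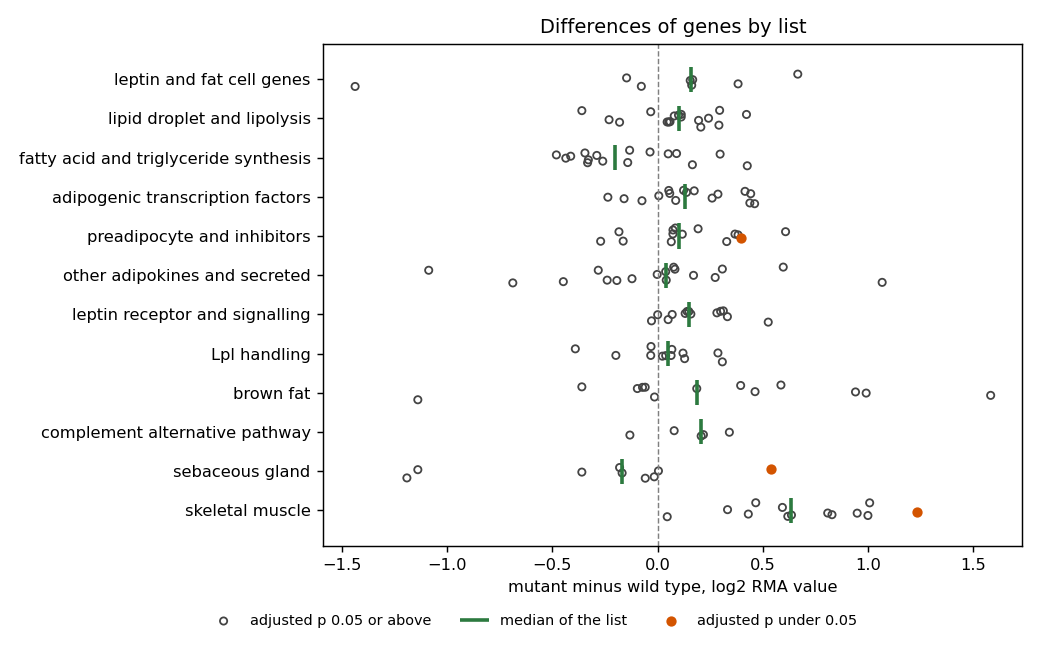
Mutant minus wild type differences in log2 RMA value of each measured gene, by list. Open circles did not pass limma, filled circles passed, and green lines are list medians. Among the lists plotted, the filled circles are Ddit3 (0.39), Krt79 (0.54) and Myh2 (1.23).

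Markers of other cell types in skin were counted beside these. None of 11 endothelial, 9 macrophage or 10 dermal fibroblast genes passed limma, with median log2 differences of 0.048, 0.27 and 0.0843. At an unadjusted p under 0.05 there were 0 and 0 endothelial, 0 and 0 macrophage, and 3 and 1 fibroblast genes higher and lower, and 8.44% and 5.94% of all probe sets. Pdgfra, at 0.37, is among the higher genes of both the fibroblast and the precursor lists. The genes with the smallest p had log2 differences of 0.22 (Tie1) and 0.17 (Egfl7) in endothelium, 0.26 (Csf1r) and 0.34 (Itgam) in macrophages, and 0.34 (Thy1) and -0.57 (Fap) in fibroblasts. Of 14 keratinocyte genes 1 fell, Ivl or involucrin (-0.74, limma adjusted p = 0.00559, lost without variance moderation at adjusted p = 0.0875), where 1.6% of all probe sets were called lower. Unadjusted p was under 0.05 for 2 higher and 2 lower keratinocyte genes, beside 8.44% and 5.94% of all probe sets, and the list median was 0.0957.

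With mutant replicate 3 left out, more genes of these lists passed limma, as did more probe sets overall (7.95% higher and 6.23% lower). Of the fat cell lists, 3 lipid droplet genes were then higher and 3 lower, and 5 transcription factors higher and 1 lower. There were 1 lipid synthesis gene higher and 4 lower, and 1 gene of the secreted protein list higher and 1 lower. For precursor genes and inhibitors the counts were 6 and 1, for brown fat genes 6 and 2, for complement genes 3 and 0 and for Lpl partners 0 and 0. Of the other cell types, 6 muscle, 3 macrophage and 4 fibroblast genes were higher, against 0, 0 and 1 lower. The sebaceous list had 1 higher and 4 lower, the keratinocyte list 1 and 2, and the endothelial list 0 and 0. The muscle list averaged 11.22 and 10.69 in mutant replicates 1 and 2, where Adipoq and Retn were higher, and 10.20 in mutant replicate 3. Wild type replicate 2, at 10.62, was close to mutant replicate 2. The part of cell composition was not tested. The Krt79 call was lost in each fit that dropped an array other than mutant replicate 3, and that of Myh2 when wild type replicate 1, mutant replicate 1 or mutant replicate 2 was dropped. Without variance moderation both were lost (adjusted p = 0.20 for each).

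Single arrays also moved the list medians by over 1.5 times. Without mutant replicate 1 the median was 0.061 for secreted proteins, 0.106 for Lpl partners, 0.0283 for endothelium and -0.0925 for the sebaceous list. Without mutant replicate 2 it was 0.0517 for complement, 0.002 for endothelium, 0.144 for macrophages, 0.0105 for fibroblasts and -0.0695 for the sebaceous list. Without mutant replicate 3 it was 0.15 for lipid droplets, 0.161 for precursors and inhibitors, 0.249 for fibroblasts and -0.318 for the sebaceous list. Without wild type replicate 1 it was 0.0588 for lipid droplets, 0.0172 for Lpl partners, 0.0561 for fibroblasts and -0.0197 for endothelium, the last with its sign turned. Without wild type replicate 2 it was 0.0137 for secreted proteins, 0.123 for endothelium and 0.99 for muscle. Without wild type replicate 3 it was 0.0123 for secreted proteins, 0.021 for endothelium, 0.131 for fibroblasts and -0.106 for the sebaceous list.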

How the data were processed

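Total RNA of dissected skin was amplified from oligo(dT) primers for Affymetrix arrays, as the labels' protocols state. The authors deposited log2 values made with RMA, per the submitters' processing notes, with no version stated. RMA forces one distribution on all arrays, which hides any change in total RNA. Of 16395 probe sets, 64 controls were left out, and 15644 of the remaining 16331 had 1 symbol in the array annotation, 687 none. Groups and replicate numbers came from the titles. Mutant was compared with wild type by limma 3.58.1 in R 4.3.3 (lmFit, eBayes, two-sided, no filter or block), with Benjamini-Hochberg adjustment over all 16331 probe sets at 0.05. The fit was tested on simulated data with independent noise for each probe set and no array that stood apart. That test therefore does not cover an array such as mutant replicate 3. P-values cover only the spread of these samples, which the labels do not tie to named animals.

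The members and 15 gene lists were chosen with earlier results of these data known. Several lists share genes, so their counts are not independent. Named were Hoxc13, all members, up to 4 called genes of each list or else the 2 with the smallest p, and the 5 genes most correlated with Lep. Outside this rule, Lepr, Ptpn11, Socs3, Ucp1, Pdgfra, Scd3, Elovl3, Krt14 and Xist were named after their values were seen, without alternatives. Promoter sequences came from RefSeq (GRCm38.p6). Alternatives were repeated quantile normalisation, centring, a filter on low values, other variance priors, array weights, a replicate block and leaving out each array. Figures used matplotlib 3.10.9 in Python 3.11.15.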

Additional observations from a re-analysis of the deposited data

How the results depend on the processing

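The count of called probe sets was 339, and it was 84 without variance moderation, 1880 with array weights and 197 with the replicate block, and ranged from 151 to 2316 when single arrays were left out, the highest without mutant replicate 3. None of the 8 members was called, except 2 with array weights (Adipoq at 0.55 and Retn at 0.98), and 0 to 2 when single arrays were left out, 2 without mutant replicate 3. Lep was not called under any of the 13 alternatives; its adjusted p was 0.0532 with array weights, 0.0851 with the replicate block and 0.383 without variance moderation. The change in Lep minus the mean of the other members ranged from -1.89 to -1.28. Deviations from the group means correlated at 0.036, -0.119 and -0.0873 between arrays of the same replicate number. Among the mutant arrays these deviations mostly set replicate 3 against replicates 1 and 2 (r of -0.801 and -0.753). The correlations thus cannot decide whether the numbers pair the arrays. With the replicate block Ddit3 (adjusted p = 0.122) and Krt79 (adjusted p = 0.097) were lost. Over the genes chosen by the naming rule and the alternatives run for them, 461 values kept their side of the threshold, 36 newly passed it and 19 no longer did, with no change of direction. Arrays give no counts, and no detection calls were used.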
